A study of Bos taurus with 16 samples.

Results

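The genes of the mitochondrial genome were followed in whole blood of 16 crossbred beef steers. They were found by identifier and length, and a length could be recovered only for genes with a count in at least 1 steer. A member had an Ensembl identifier numbered between 43540 and 43590. It also had a gene length, recovered from the deposited FPKM and normalized counts, equal to that of a bovine mitochondrial ribosomal RNA or mRNA, or between 59 and 76 bp, the size of a transfer RNA. Of the 27607 genes in the table, 33 met this rule: 2 ribosomal RNAs, 13 mRNAs and 18 genes of transfer RNA size. The identifier range held 45 rows in all, of which 7 had no count in any steer and 5 had other lengths. The table gives no symbols, so the names used here come from matching each recovered length with the 37 mitochondrial genes of the RefSeq annotation of ARS-UCD2.0. Each ribosomal RNA and mRNA length belongs to 1 gene there, whereas the transfer RNA lengths of 67, 69 and 71 bp are each shared by several genes. With 18 members against the 22 transfer RNA genes in RefSeq, 4 of these genes were left without a member.

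Residual feed intake (RFI) is the gap between what an animal eats and what its weight and growth predict, and feed-inefficient animals have a high RFI. The 8 steers labelled high-RFI and the 8 labelled low-RFI were the extremes of 1 set of steers fed the same high-forage ration, and neither group was treated. Each steer gave 1 library from total RNA of whole blood collected on several days and pooled within the animal, prepared with depletion of ribosomal RNA and globin RNA. Steers are called by the number in their label, from 1 to 8 for low-RFI and from 9 to 16 for high-RFI. Depth, as counts on genes, was between 4.80 and 12.2 M, with the fewest in steer 4 (low-RFI). The study's own list of reads per library follows these counts only when its group names are exchanged, so each direction given here is that of the RFI value in the sample labels and would turn round otherwise. The column names begin with HFE for the steers labelled high-RFI and with LFE for those labelled low-RFI, letters that the labels do not spell out. The sources used here give no age, breed composition, pen or laboratory batch for single steers. Markers of blood cell types were not checked, because the identifiers carry no symbols.

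The mammalian mitochondrial genome is a small circle that encodes the ribosomal RNAs and transfer RNAs of the mitochondrion's own translation, together with a few core subunits of oxidative phosphorylation. These subunits belong to complex I (the ND genes), which takes electrons from NADH, complex III (CYTB), complex IV (the COX genes), which passes them to oxygen, and ATP synthase (the ATP genes). Both strands are transcribed as long precursors that are cut mainly at the transfer RNAs. Mature red cells of mammals hold no mitochondria, so in blood this RNA is expected from leukocytes, platelets and young red cells, and fewer such cells and less RNA per cell cannot be told apart in these bulk libraries.

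The members took a modest and variable share of the counts. Their share of all counts on genes was 1.11% ± 0.146 in high-RFI steers (SD, n = 8) and 1.124% ± 0.315 in low-RFI steers (SD, n = 8). In high-RFI steers it had a minimum of 0.815% (steer 15), a median of 1.13% and a maximum of 1.33% (steer 14). In low-RFI steers it had a minimum of 0.696% (steer 5), a median of 1.04% and a maximum of 1.73% (steer 4). The groups overlapped almost entirely, and the low-RFI steers held both ends of the range. Steer 4 had the highest normalized count of 12 of the 13 mRNAs, and COX2 was highest in steer 14. Steer 5 had the lowest of 11, the remaining 2, ND1 and COX2, being lowest in steer 15. Most mRNAs thus shared the same highest and lowest steer. Over the 16 steers, the coefficient of variation of the 13 mRNAs had a median of 22.1%, from 17.0% for ND1 to 25.8% for CYTB. Among the 8416 genes with a mean normalized count of at least 100, the median was 13.3%, with quartiles at 10.03% and 19.4%.

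Levels per length were compared on the FPKM scale over all 16 steers. COX1, the catalytic core subunit of complex IV, was highest at 1979 ± 395 FPKM (SD, n = 16), with a range from 1302 to 2839. It ranked 23 among the 21016 genes with a count. COX3, another core subunit of complex IV, followed at 1784 ± 337 FPKM, below COX1 in 16 of 16 steers. ND3 of complex I had 1174 ± 261 FPKM, ATP6 of ATP synthase 1070 ± 192 FPKM and CYTB of complex III 861 ± 223 FPKM. ND3 was above ATP6 in 12 of 16 steers, and ATP6 was above CYTB in 16. ND1, COX2 and ND4 formed a group of close levels, with 745 ± 127, 733 ± 144 and 726 ± 175 FPKM. Their order was not stable, since ND1 exceeded COX2 in 11 steers and COX2 exceeded ND4 in 8 of 16. ND5 and ND2 were as close, at 523 ± 129 and 521 ± 95.8 FPKM, with ND5 the higher in 8 of 16 steers. The other mRNAs lay lower, with ND6 at 409 ± 103, ATP8 at 302 ± 66.7 and ND4L at 268 ± 62.2 FPKM. ND6 is encoded on the strand opposite to the other mRNAs, and was below ND2 and above ATP8 in 16 of 16 steers.

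**Figure D1:**
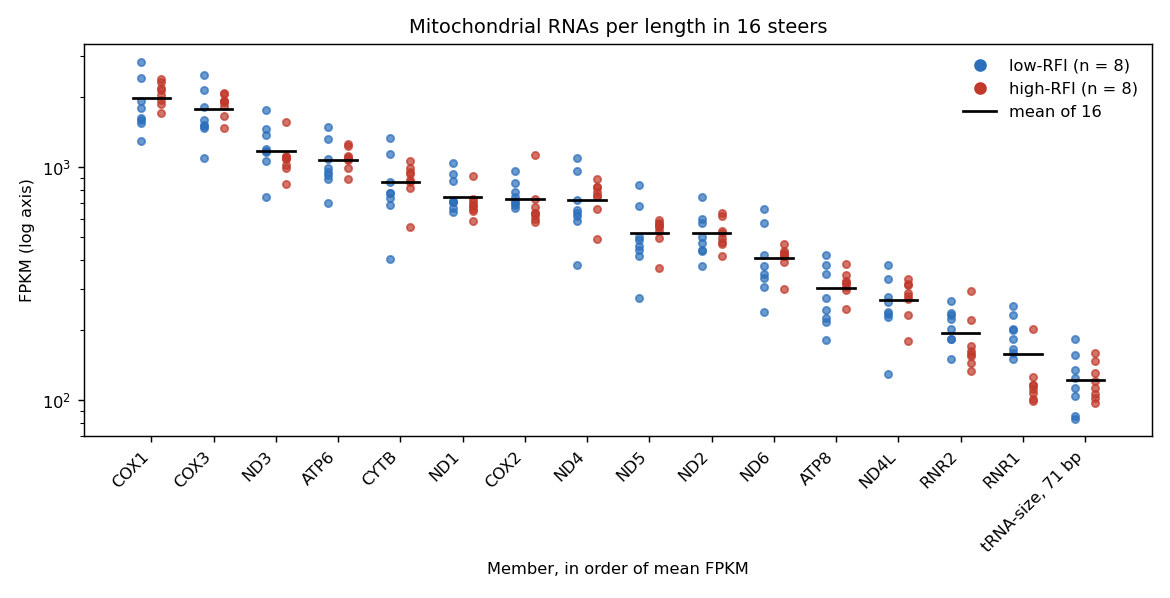
Level of the 16 members that passed the low-count filter, in order of mean FPKM (vertical log axis), with 1 point per steer, blue for low-RFI and red for high-RFI (n = 8 each), and a bar at the mean of all 16. COX1 leads at 1979 FPKM, the ribosomal RNAs lie below the mRNAs, and RNR1 is the member whose group clouds part the most.

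Neighbouring and overlapping genes did not have equal counts per length. ATP8 and ATP6 overlap and share a transcript, yet ATP6 had between 3.06 and 4.12 times the FPKM of ATP8 in the 16 steers. ND4L and ND4 also share a transcript, and ND4 had between 2.37 and 3.27 times the FPKM of ND4L. ATP8 and ND4L, at 201 and 297 bp, are the shorter genes, and the part of gene length in these ratios was not tested. How the counting assigned reads that touch both genes of such a pair, or a transfer RNA beside an mRNA, is not stated in the methods used here, and its part in these ratios was not tested. Nor is it stated whether strand was used or how reads that also match nuclear copies of mitochondrial DNA were treated.

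The ribosomal RNAs lay below every mRNA in mean FPKM in libraries made with depletion of ribosomal RNA. RNR2, the RNA of the large mitochondrial ribosomal subunit, had 195 ± 46.8 FPKM (SD, n = 16), and RNR1, that of the small subunit, had 158 ± 49.8 FPKM. ND4L was above RNR2 in 14 of 16 steers, and RNR2 above RNR1 in 14 of 16. The part of the depletion step in these levels and in their differences between steers was not tested.

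Whether mitochondrial RNAs differ between inefficient and efficient steers was tested on the raw counts of all genes. In the quasi-likelihood test of edgeR, FDR 0.05 was reached by 0 of 13265 genes (0%), the 16 members that passed its low-count filter included. DESeq2, the tool of the study, called 7 of 21016 genes (0.0333%), 1 of them a member, RNR1. At an unadjusted p under 0.05 in edgeR stood 693 genes (5.22%), of which 325 (2.45%) were lower and 368 higher in high-RFI steers, and 1 of the 16 members, RNR1, was lower. Without the TMM factors this split became 149 higher and 623 lower, and the median log2 fold change of all genes moved from 0.00 to -0.05. The 16 members had a median log2 fold change of 0.03 against that 0.00 over all genes tested.

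RNR1 (ENSBTAG00000043567, 955 bp) had the largest difference and the smallest p of the 16 members that passed the filter. Its normalized counts in low-RFI steers 1 to 8 were 1593, 1262, 1441, 2011, 1180, 1824, 1315 and 1586. In high-RFI steers 9 to 16 they were 877, 801, 844, 917, 913, 988, 783 and 1588. Thus 7 of the 8 high-RFI steers lay below every low-RFI steer, and steer 16 lay within the range of the other group. The means were 964 ± 261 in high-RFI (SD, n = 8) and 1526 ± 286 in low-RFI steers (SD, n = 8), a ratio of 0.630 in the fit. The log2 fold change in edgeR was -0.67 with an unadjusted p of 0.000189 and an adjusted p of 0.748. DESeq2 gave -0.66 with a standard error of 0.15, a 95% interval from -0.96 to -0.37 and an adjusted p of 0.0435. Permuting the group labels over the 16 steers in every possible way, an exact two-sided test on log2(normalized count + 1), gave p = 0.00124. This test is of a single gene, and its p is not adjusted over the genes of the table.

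The call for RNR1 depended on the test and on 1 steer. Its adjusted p was 0.00708 in limma voom with sample quality weights, which called 13 of 13265 genes (0.098%), and 0.0540 in DESeq2 without replacement of outlier counts. Over the 9 alternatives that kept all steers it ran from 0.00708 to 0.846, with log2 fold changes from -0.75 to -0.66. Without steer 16, edgeR gave -0.80 on the log2 scale with the adjusted p at 0.00850, and RNR1 was 1 of 2 genes called among 13389 (0.0149%). In the fits that left out another steer, the adjusted p was 0.154 without steer 14 and higher in the others. The direction was the same in all 9 alternatives and all 16 of these fits.

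RNR2 (ENSBTAG00000043570, 1571 bp), which lies next to RNR1 with 1 transfer RNA gene between them, was the member of highest FPKM among the ribosomal RNAs. Its normalized counts in high-RFI steers had a minimum of 1731, a median of 2077 and a maximum of 3831 (steer 16). In low-RFI steers they had a minimum of 1953, a median of 2751 and a maximum of 3448 (steer 4). The groups overlapped, with steer 16 above all low-RFI steers and 2 high-RFI steers below all of them. The means were 2337 ± 692 (SD, n = 8) and 2717 ± 479 (SD, n = 8). In edgeR this was a log2 fold change of -0.22, adjusted p = 0.984. The 95% interval from DESeq2 ran from -0.53 to 0.10. Without steer 16 the log2 fold change of RNR2 in edgeR was -0.36, with an unadjusted p of 0.00823 and an adjusted p of 0.9999.

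**Figure D2:**
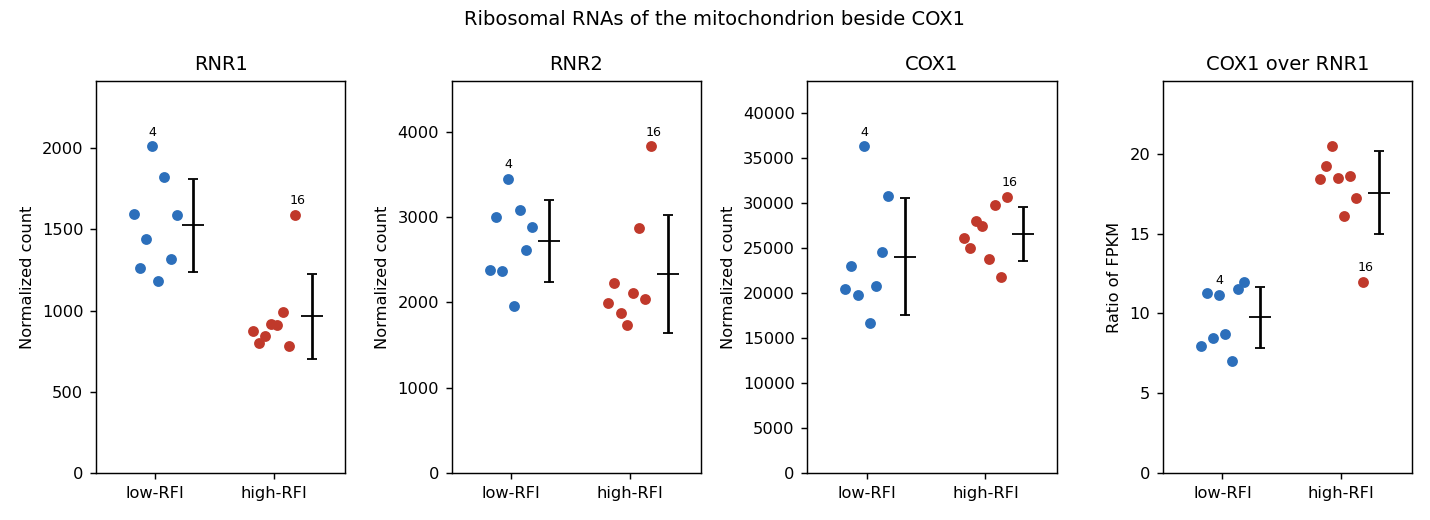
Normalized counts of RNR1, RNR2 and COX1 and the ratio of COX1 to RNR1 in FPKM (vertical axes from 0), with 1 point per steer and the mean ± SD of each group beside it (n = 8). In RNR1, 7 high-RFI steers lie below every low-RFI steer and steer 16 does not, whereas COX1 overlaps between the groups.

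The 13 mRNAs did not follow RNR1. Their log2 fold changes in edgeR lay between -0.18 and 0.15 with a median of 0.06, 10 above 0 and 3 below, and the lowest adjusted p was 0.984. The intervals from DESeq2 bound these differences, and over the 13 mRNAs they reached from -0.47 for ND3 to 0.47 for ATP8. COX1 (ENSBTAG00000043561, 1545 bp) had the smallest p among the members that passed the filter with a higher level in high-RFI steers. Its normalized counts in high-RFI steers had a minimum of 21798, a median of 26771 and a maximum of 30684. In low-RFI steers they had a minimum of 16634, a median of 21824 and a maximum of 36258. The high-RFI steers all lay within the wider range of the low-RFI steers. The means were 26546 ± 2997 (SD, n = 8) and 23995 ± 6474 (SD, n = 8). The log2 fold change in edgeR was 0.14, the unadjusted p from this tool 0.309 and the adjusted p 0.9989. The 95% interval from DESeq2 was -0.13 to 0.42, and the two-sided exact permutation test gave p = 0.225.

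Among the other subunits of complex IV, COX3 (ENSBTAG00000043560, 781 bp) had a log2 fold change of 0.12 and COX2 (ENSBTAG00000043556, 684 bp) one of -0.13. In COX2, 5 of the 8 high-RFI steers were below every low-RFI steer, steers 12 and 16 lay within the low-RFI range with 3822 and 4120 normalized counts, and steer 14 was above it with 6402. Without steer 14 its log2 fold change was -0.26, with an unadjusted p of 0.00455 and the adjusted p 0.683 in edgeR. Of the 7 complex I genes, 5 were above 0, from 0.00 for ND2 (ENSBTAG00000043571, 1042 bp) to 0.08 for ND4L (ENSBTAG00000043559, 297 bp) and ND4 (ENSBTAG00000043577, 1378 bp). Between these lay ND6 (ENSBTAG00000043546, 528 bp) with 0.01 and ND5 (ENSBTAG00000043563, 1821 bp) with 0.05. The 2 below 0 were ND1 (ENSBTAG00000043558, 956 bp) with -0.16 and ND3 (ENSBTAG00000043568, 346 bp) with -0.18. ND1 had the smallest p of all mRNAs, 0.151 unadjusted and 0.984 adjusted. The log2 fold change was 0.07 for CYTB (ENSBTAG00000043550, 1140 bp), 0.06 for ATP6 (ENSBTAG00000043584, 681 bp) and 0.15 for ATP8 (ENSBTAG00000043564, 201 bp). No gene of these complexes passed the test, and the direction of ND2, ND5 and ND6 turned without TMM factors.

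**Figure D3:**
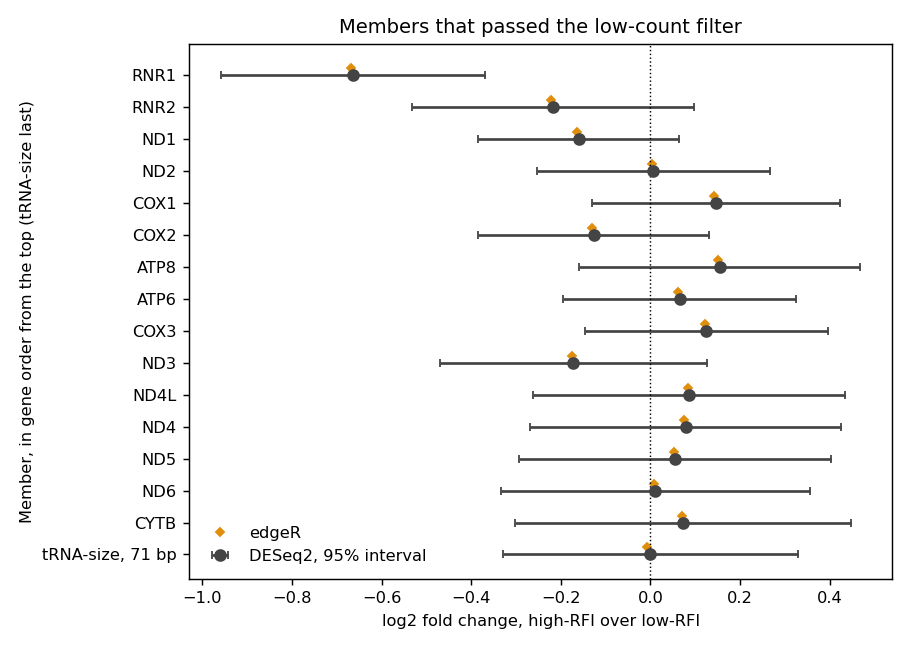
Log2 fold change of high-RFI over low-RFI for the 16 members that passed the filter, in gene order from the top with the transfer RNA-size member last. Points with bars are DESeq2 estimates with 95% intervals and diamonds are edgeR estimates, and the interval excludes 0 in RNR1 alone, from -0.96 to -0.37.

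The ratio of members within a steer takes out only what scales them alike. The part of the depletion step in the ratios and shares that hold a ribosomal RNA was not tested. These ratios and shares are descriptions, chosen after results were known, and were not tested. COX1 had 17.6 ± 2.61 times the FPKM of RNR1 in high-RFI steers (SD, n = 8) and 9.75 ± 1.92 times in low-RFI steers (SD, n = 8). The ratio ran from 11.9 (steer 16) to 20.5 in the former and from 7.01 to 11.99 in the latter, so the groups overlapped only through steer 16. The ribosomal RNAs made up 3.53% ± 0.723 of the mitochondrial counts in high-RFI and 4.81% ± 0.698 in low-RFI steers. These shares overlapped, from 2.80% to 5.04% (steer 16) in the former and from 3.92% to 5.97% in the latter. RNR2 had 1.48 ± 0.199 times the FPKM of RNR1 in high-RFI and 1.09 ± 0.168 times in low-RFI steers, with ranges from 1.15 to 1.77 and from 0.910 to 1.45 that overlapped.

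Within the mRNA counts, the complex I genes took 35.8% ± 0.772 in high-RFI steers (SD, n = 8) and 37.6% ± 0.690 in low-RFI steers (SD, n = 8). The highest high-RFI steer had 36.5%, and 7 of the 8 low-RFI steers were above it, steer 5 with 36.4% being the exception. The genes ND1 and ND3 carried most of this gap. ND1 took 6.21% ± 0.456 of the mRNA counts in high-RFI and 7.37% ± 0.796 in low-RFI steers, and ND3 3.51% ± 0.375 and 4.15% ± 0.252. The complex IV genes showed the opposite order, with 47.5% ± 1.22 in high-RFI and 45.9% ± 1.48 in low-RFI steers. COX1 took 29.6% ± 1.02 against 27.9% ± 0.954, while COX2 took 4.40% ± 0.767 against 5.19% ± 0.771, so these subunits of 1 complex lay in opposite directions. For complex III the high-RFI steers lay within the low-RFI range, at 9.22% ± 0.697 against 9.03% ± 0.964. For ATP synthase the shares were 7.47% ± 0.267 against 7.42% ± 0.155, and the ranges overlapped in part, with 3 high-RFI steers above every low-RFI steer and steer 4 below every high-RFI steer. Shares of 1 total are not independent, since a higher share of COX1 lowers that of the others.

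**Figure D4:**
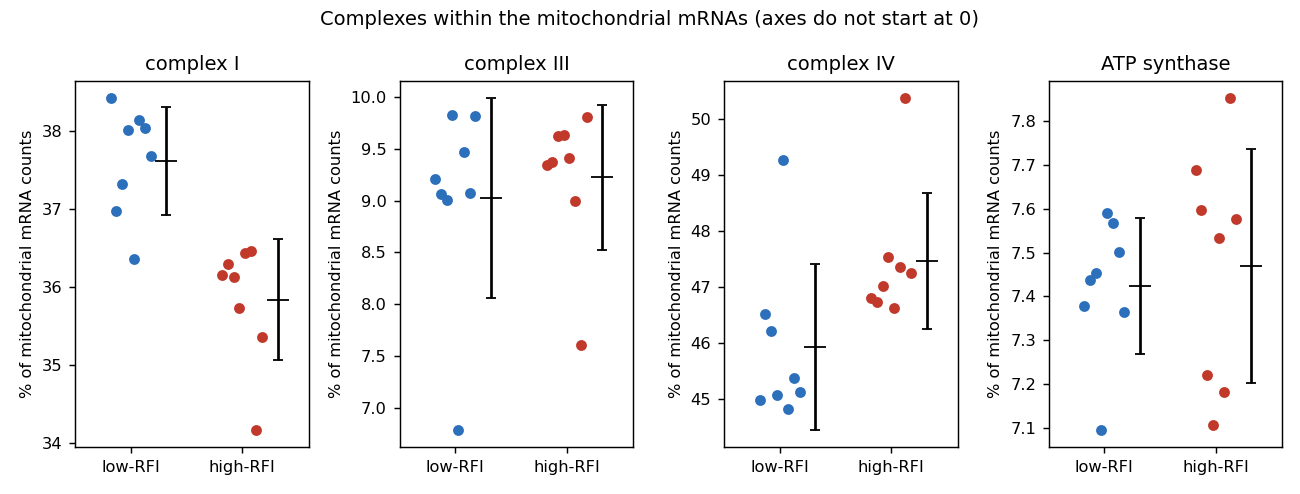
Share of the mitochondrial mRNA counts on genes of complex I, complex III, complex IV and ATP synthase (vertical axes in percent, not starting at 0), with 1 point per steer and the mean ± SD of each group (n = 8). For complex I, 7 low-RFI steers lie above the highest high-RFI steer, and steers 5 and 15 stand low for complex III and high for complex IV.

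Pairs of members were correlated across the 16 steers on log2(normalized count + 1), with 6 pairs and 12 coefficients adjusted together by the Benjamini-Hochberg procedure. ND4L and ND4 had a Pearson r of 0.952 (permutation p = 1e-05, adjusted 2.4e-05) and a Spearman rho of 0.897 (permutation p = 2e-05, adjusted 4e-05), and r was 0.885 without the 2 steers farthest from the median of ND4L. ATP8 and ATP6 had r = 0.940 (permutation p = 1e-05, adjusted 2.4e-05) and rho = 0.909 (permutation p = 1e-05, adjusted 2.4e-05), and r was 0.902 without the 2 farthest steers. These are the pairs that share a transcript and may share reads. COX1 and ND6 are encoded on opposite strands and far apart, at places 16 and 33 in the gene order. Whether the counting used strand is not stated. The correlation of COX1 and ND6 was as close, with r = 0.934 (permutation p = 1e-05, adjusted 2.4e-05) and rho = 0.935 (permutation p = 1e-05, adjusted 2.4e-05). Without the 2 farthest steers, r was 0.863 for COX1 and ND6. A permutation p of 1e-05 is the smallest that 100000 permutations can give.

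Before group means were taken out, RNR1 and RNR2 were correlated with each other, and COX1 less with either COX2 or RNR2. By rank within groups this order did not hold. For RNR1 and RNR2, r was 0.753 (permutation p = 0.00112, adjusted 0.00192) and rho 0.750 (permutation p = 0.00143, adjusted 0.00214), with r = 0.690 without the 2 farthest steers. As deviations from the group means, r was 0.789 for this pair and 0.469 without steers 4 and 16, so within groups it rested largely on these steers. The rho of the RNR1 and RNR2 deviations was 0.541 (permutation p = 0.0326, adjusted 0.0326). For COX1 and COX2, r was 0.512 (permutation p = 0.0439, adjusted 0.0585) and rho 0.388 (permutation p = 0.138, adjusted 0.150), falling to r = 0.399 without the 2 farthest steers. As deviations from the group means, r rose to 0.675 for this pair (permutation p = 0.00619, adjusted 0.00825), and was 0.620 without the 2 farthest steers. The rho of the COX1 and COX2 deviations was 0.815 (permutation p = 0.00021, adjusted 0.00036). COX1 and RNR2 had r = 0.409 (permutation p = 0.117, adjusted 0.140) and rho = 0.282 (permutation p = 0.288, adjusted 0.288), with r = 0.152 without the 2 farthest steers. As deviations from the group means, r was 0.602 for COX1 and RNR2 (permutation p = 0.0142, adjusted 0.0170), and 0.436 without the 2 farthest steers. The rho of the COX1 and RNR2 deviations was 0.544 (permutation p = 0.0316, adjusted 0.0326). Deviations were permuted over all steers and not within groups, so their p-values may be too small.

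**Figure D5:**
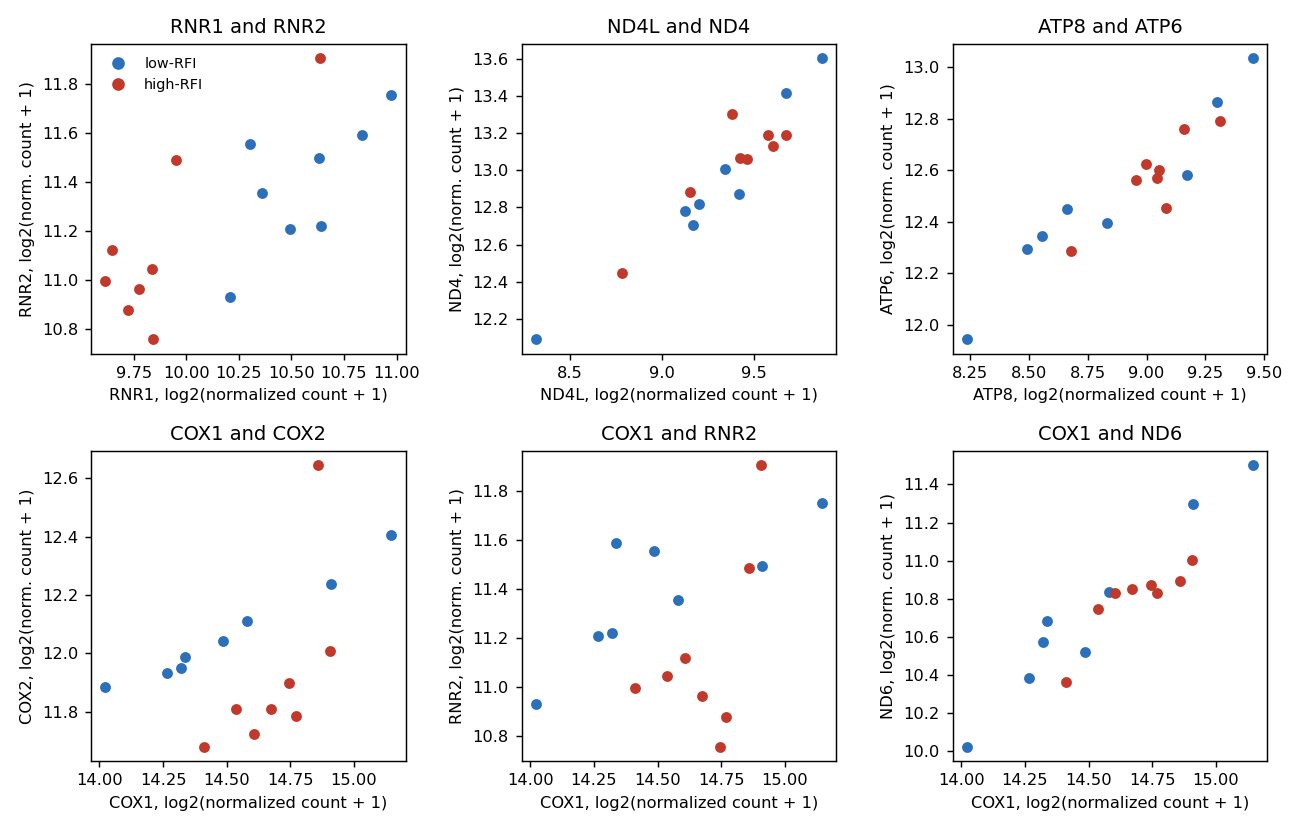
Pairs of members across the 16 steers, each axis in log2(normalized count + 1), blue for low-RFI and red for high-RFI. ND4L with ND4, ATP8 with ATP6 and COX1 with ND6 lie along a line (r of 0.952, 0.940 and 0.934), while COX1 with COX2 and with RNR2 scatter and the groups form offset bands.

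The 18 genes of transfer RNA size were near the limit of detection with 1 exception. ENSBTAG00000043545 (71 bp) had between 47 and 116 raw counts in every steer and 122 ± 28.0 FPKM (SD, n = 16). Its FPKM was not far below that of RNR1, but rested on a mean of 71.9 normalized counts against 1245 for RNR1. With a gene this short, the 2 values cannot be compared as levels of RNA. RefSeq lists 2 mitochondrial transfer RNA genes of 71 bp, 1 directly after COX1 and 1 directly before ND5, and the length does not tell which it is. Its normalized counts in high-RFI steers had a minimum of 57.1, a median of 68.3 and a maximum of 93.1. In low-RFI steers they had a minimum of 48.9, a median of 69.6 and a maximum of 108. The high-RFI steers lay within the range of the low-RFI steers, whose ends were steers 5 and 4, as in most mRNAs. The means were 71.5 ± 12.8 (SD, n = 8) and 72.3 ± 20.3 (SD, n = 8). The log2 fold change in edgeR was -0.01 (adjusted p = 0.9989), and the 95% interval in DESeq2 ran from -0.33 to 0.33.

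The other 17 genes of this size had a mean below 4 normalized counts and at most 8 raw counts in any steer, and none passed the filter. None of these 17 genes reached FDR 0.05 in DESeq2 or in edgeR without the filter. With so few counts, these tests cannot decide whether the genes differ. By unique length, ENSBTAG00000043573 (73 bp, 3.58 ± 2.24 normalized counts, SD, n = 16) has the size of the transfer RNA for asparagine and ENSBTAG00000043565 (72 bp, 2.97 ± 1.89) that for glutamine. ENSBTAG00000043582 (66 bp, 1.78 ± 1.48) has the size of the transfer RNA for proline, the last gene of the circle, and ENSBTAG00000043549 (69 bp, 1.61 ± 1.06) a length shared by 8 transfer RNA genes. ENSBTAG00000043582 had from 1 to 5 raw counts in high-RFI and from 0 to 3 in low-RFI steers. Without the filter, edgeR gave it an unadjusted p of 0.0305 and an adjusted p of 0.846, and DESeq2 an adjusted p of 0.996. The exact permutation test on log2(normalized count + 1) gave p = 0.0236, not adjusted over genes. Libraries of this kind are not made for RNAs of transfer RNA size. The counts of these genes, ENSBTAG00000043545 included, therefore cannot be read as levels of mature transfer RNA.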

How the data were processed

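Total RNA of whole blood from 16 steers, 1 library each, was sequenced after depletion of ribosomal and globin RNA. Per the labels and methods, the authors used Trimmomatic 0.39 for trimming, HISAT2 2.2.1 for alignment (genome ARS-UCD1.2) and GenomicAlignments for counts per gene; annotation, strand and treatment of reads with several matches are not given in the sources used here. They deposited raw counts, normalized counts (a signal per gene, the counts divided by 1 size factor per steer, from 0.622 to 1.46) and FPKM, which are the deposited normalized counts per length. Dividing these gave a length within 0.001 of a whole number of bp for each of 21016 genes. All columns were mapped to a steer.

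Raw counts were compared with edgeR 4.0.16 (TMM, filterByExpr, robust quasi-likelihood, Benjamini-Hochberg adjustment over all genes tested) in R 4.3.3, tested on simulated data. DESeq2 1.42.0 and limma 3.58.1 were alternatives, and DESeq2 gave standard errors. No covariates were used. With 1 library per steer, the tests set the difference between groups against the spread between steers. Spread from library preparation is part of it and cannot be told apart.

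Members and lists were chosen with earlier results of these data known. All ribosomal RNA and mRNA members and the 5 transfer RNA-size members of highest mean count were to be named, with steer values for the member of smallest p in each direction, that of highest FPKM in each class and any past FDR 0.05.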

Additional observations from a re-analysis of the deposited data

Results flagged for a closer look

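Each member or share gave a value for 8 steers per label, 52 such sets in all. In 11 of them the highest or lowest steer stood further from its neighbour, relative to the whole range, than Dixon's critical value for 8 samples allows. Chance flags about 1 in 20 sets, and some of the members are correlated, so these are not independent.

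Steer 14 (high-RFI) stood above its group in 3 mRNAs: COX2 with 6402 normalized counts against 4120 in the next steer, ND3 with 4494 against 3197 and ND1 with 7273 against 5780. Steer 15 (high-RFI) stood below its group in ND5 with 5545 against 7514 and in ND6 with 1315 against 1717. Steer 16 (high-RFI) stood above its group in RNR1 with 1588 against 988.

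Within the mitochondrial mRNA counts, the complex III share was low in steer 15 (7.61% against 8.99% next, high-RFI) and in steer 5 (6.78% against 9.004% next, low-RFI). In the same steers the complex IV share was high, at 50.4% against 47.5% and at 49.3% against 46.5%. The ATP synthase share was lowest in low-RFI steer 4, at 7.10% against 7.36%. Steer 4 had the fewest counts, 4.80 M, and the part of depth in its position was not tested.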

How the results depend on the processing

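The number of genes past FDR 0.05 was 0 in edgeR, 7 in DESeq2, 2 in DESeq2 without replacement of outlier counts (added after the data were seen) and 13 in limma voom with sample quality weights. Leaving out 1 steer in edgeR gave 0 to 25 genes, above 0 without steer 14 (25) and steer 16 (2). Members past FDR 0.05 numbered 1 in DESeq2, 1 in limma voom and 0 to 1 without 1 steer, in each case RNR1, and 0 in the other 7 of 9 alternatives. Members at an unadjusted p under 0.05 numbered 3 in limma voom (RNR1, RNR2 and COX2), 2 without the filter and 1 to 3 without 1 steer, where COX1 was added without steer 4, COX2 and ND1 without steer 14 and RNR2 without steer 16.

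Signs turned only for log2 fold changes near 0: without TMM factors for ND5 (-0.0081), ND2 (-0.056) and ND6 (-0.051), in limma voom for ND2 (-0.026) and ENSBTAG00000043545 (0.0071), and on log2(FPKM + 0.1) and log2(FPKM + 1) for ENSBTAG00000043545 (0.014 and 0.013). Without 1 steer, the values ran from -0.0045 to 0.15 for ATP6, -0.033 to 0.20 for CYTB, -0.016 to 0.19 for ND4, -0.016 to 0.18 for ND4L, -0.041 to 0.19 for ND5, -0.052 to 0.096 for ND2, -0.075 to 0.14 for ND6 and -0.072 to 0.086 for ENSBTAG00000043545. Those of the first 5 were below 0 only without steer 5. The correlation of COX1 and COX2 was 0.569 on shares of counts and 0.675 as deviations from group means, and that of COX1 and RNR2 0.602 as deviations, these Pearson values then past 0.05. The Spearman rho of COX1 and COX2 on shares was 0.362 (permutation, adjusted p = 0.183), and r was 0.431 without the 2 farthest steers. As deviations from group means, the rho of this pair was 0.815 (permutation over all steers and not within groups, adjusted p = 0.00036). The cause of these changes was not tested. The difference in mitochondrial share of counts, -1.33% of its mean, was 2.98% on normalized counts, within the spread of 21.99%. That of the ribosomal RNAs, -29.5% with a spread of 21.4%, ran from -36.8% to -24.8% without 1 steer. No paired analysis was possible because the groups share no replicate numbers. Depth limits the transfer RNA-size members.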
